A study of Mus musculus with 10 samples.

Results

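The renin-angiotensin system genes examined here are 7 genes, chosen by their symbols in both tables of the series: Ren1, Ren2, Agt, Ace, Agtr1a, Agtr2 and Atp6ap2. All 7 were listed among the 20007 genes of the adult testis table and among the 17816 genes of the table of Sertoli cells at day 7 after birth. The choice was made with results of these data in view, so the differences of the members are described with their errors and nothing is supported with them. Ren1 and Ren2 are near-identical in sequence, so their sum is given beside each. RSEM, named for the day 7 cells and assumed for the adult table, divides reads between such genes by estimate.

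In the renin-angiotensin system the protease renin cuts angiotensinogen, the product of Agt, to release angiotensin I. Angiotensin-converting enzyme, the product of Ace, removes a dipeptide from it to make angiotensin II, which acts through the type 1 receptor (Agtr1a in most mouse tissues) and the type 2 receptor (Agtr2). Atp6ap2 encodes the (pro)renin receptor, which is also an accessory subunit of the vacuolar proton pump. In the testis, renin is known from Leydig cells, the interstitial cells that make testosterone. Ace has a pair of promoters: the upstream promoter gives the somatic enzyme, made in endothelium and other cells, and a promoter inside the gene gives the shorter testis enzyme, made in haploid male germ cells.

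The adult groups were 3 testes labelled WT and 3 testes labelled RNF20 conditional knockout. The day 7 groups were 2 samples from Rnf20 Flox/Flox mice, labelled WT, and 2 from Amh-Rnf20-/- mice, in which Cre driven by the Amh promoter deletes Rnf20, a ubiquitin ligase for histone H2B, in Sertoli cells. According to the methods of the study, both genotypes came from crosses of Rnf20 Flox/Flox animals with Amh-Cre carriers, so the floxed allele was shared by both groups. Day 7 cells were cultured and passaged several times before RNA was taken, whereas adult RNA came from the whole organ. The growth label of every sample names adult tissue, the day 7 cells included, and the methods do not describe the adult experiment. The ages of the adult mice and the strain of each animal were not given in the sources used here, and nothing in the labels says whether the adult samples of a group came from separate animals, so their p-values measure the spread between these samples, which may be technical. Methods for the day 7 cells name 3 individuals per group, and 2 samples per group were analysed here.

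Total estimated counts were 15431918 to 16574153 per adult sample and 17477277 to 17705356 per day 7 sample. Values are FPKM, fragments per kilobase of transcript scaled to library size, unless stated otherwise. The targeted gene Rnf20 was at 4.89, 3.32 and 4.09 FPKM in the adult control testes and at 9.16, 5.76 and 9.85 in the testes labelled knockout, and its counts after scaling differed by 0.12 ± 0.27 (log2, SE). Rnf20 was thus not lower in the adult samples labelled knockout; these are counts over the full gene in the whole organ, and Sertoli cells alone were not measured at this age. In day 7 cells Rnf20 was at 16.64 and 16.01 FPKM in controls and at 10.25 and 12.58 in Amh-Rnf20-/- cells (log2 fold change -0.49 ± 0.12). Knockout-labelled testis 1 stood apart from the other two of its group: the summed FPKM of 16 Sertoli cell markers was 3356 against 7654 and 8955, and that of 10 spermatocyte markers was 8.19 against 149 and 261. Of the day 7 Amh-Rnf20-/- samples, sample 1 had the lower summed Sertoli cell marker level, 1853 FPKM against 2159 in sample 2. The controls were at 2648 to 2872. Day 7 cells of both groups also carried 7 peritubular myoid cell markers at summed levels of 1959 to 3664 FPKM. The cell make-up of the adult testes differed between groups: 12 spermatid markers summed to between 1.27e+05 and 1.96e+05 FPKM in controls and to between 15.98 and 152 in the samples labelled knockout. A gene was called where the adjusted p of edgeR's quasi-likelihood test was under 0.05, and in adult testis 81.5% of the 15919 genes tested were called, 40.9% higher and 40.6% lower in the samples labelled knockout. In bulk samples such as these, fewer cells of a type and less RNA per cell cannot be told apart.

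The promoters of Ren1 and Agt and both promoters of Ace are shown because these genes make the substrate and the enzymes of angiotensin II and because transcripts from the 2 starts of Ace differ in length. Sequences are from RefSeq on GRCm38.p6, from 250 bases before to 50 bases after the annotated start, 5′ to 3′ on the strand of the gene. The windows are chr1:133350424-133350723 (+) for Ren1, chr8:124569657-124569956 (-) for Agt, chr11:105967698-105967997 (+) for the upstream start of Ace and chr11:105974939-105975238 (+) for its inner start. Capitals mark matches to TATAAA on either strand and to TGAGGTCA, a variant of the cyclic AMP response element TGACGTCA.
Ren1: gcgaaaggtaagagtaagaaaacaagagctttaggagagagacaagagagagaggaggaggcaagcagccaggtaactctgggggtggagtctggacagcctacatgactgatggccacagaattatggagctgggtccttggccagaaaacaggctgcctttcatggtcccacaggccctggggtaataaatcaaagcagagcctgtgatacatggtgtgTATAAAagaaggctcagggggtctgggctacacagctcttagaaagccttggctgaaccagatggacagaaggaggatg
Agt: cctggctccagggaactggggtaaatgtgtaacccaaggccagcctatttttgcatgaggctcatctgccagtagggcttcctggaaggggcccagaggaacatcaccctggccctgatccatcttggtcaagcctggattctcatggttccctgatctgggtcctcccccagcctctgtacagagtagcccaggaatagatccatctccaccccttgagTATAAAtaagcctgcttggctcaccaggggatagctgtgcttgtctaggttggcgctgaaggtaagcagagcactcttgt
Ace, upstream start: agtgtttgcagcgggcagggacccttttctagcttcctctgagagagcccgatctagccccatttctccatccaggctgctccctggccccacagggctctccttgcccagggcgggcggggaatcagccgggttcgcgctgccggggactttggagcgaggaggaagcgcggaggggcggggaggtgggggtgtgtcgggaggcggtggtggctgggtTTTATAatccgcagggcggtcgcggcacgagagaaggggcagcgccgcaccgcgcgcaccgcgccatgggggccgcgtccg
Ace, inner start: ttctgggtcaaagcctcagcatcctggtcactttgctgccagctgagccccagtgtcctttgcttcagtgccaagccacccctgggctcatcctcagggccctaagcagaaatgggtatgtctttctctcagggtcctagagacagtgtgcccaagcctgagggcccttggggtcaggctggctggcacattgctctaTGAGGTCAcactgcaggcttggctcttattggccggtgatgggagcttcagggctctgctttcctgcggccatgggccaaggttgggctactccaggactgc
TATAAA was found 29 bases before the start of Ren1 and 30 before that of Agt, and its reverse complement TTTATA 31 bases before the upstream start of Ace. The window at the inner start of Ace held no TATAAA on either strand but held TGAGGTCA 52 bases before the start. TGACGTCA was in none of these 4 windows. Over 32851 promoter windows of the same length, 13.6% held TATAAA, 1.79% TGACGTCA and 2.17% TGAGGTCA on either strand. A match is a description of letters and not of a bound site. No window for Ren2 or Agtr1a was in the table used.

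Ren1 (Entrez 19701, chr1:133350674-133360320, plus strand), the renin gene present in every mouse strain, was low in the adult control testes and higher in the testes labelled knockout. It was at 2.12, 2.13 and 1.37 FPKM in controls and at 58.24, 51.42 and 55.24 in the samples labelled knockout. All 3 of the latter were close together and above all controls. Ren2 (Entrez 19702), the second renin gene that some mouse strains carry, was listed at 0, 0.40 and 0 FPKM in controls and at 42.67, 50.16 and 63.46 in the samples labelled knockout. As a sum, renin was at 2.12, 2.53 and 1.37 FPKM in controls and at 100.91, 101.58 and 118.70 in the samples labelled knockout, 53.4-fold higher by the ratio of mean FPKM. The fitted log2 fold change of the summed counts, after TMM scaling, was 4.92 ± 0.27 (SE), and that of Ren1 alone was 4.01 ± 0.23. The controls held only 26 to 49 renin counts each, against 1943 to 2249 in the samples labelled knockout, so the size of the difference is limited by the low control counts.

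**Figure D1:**
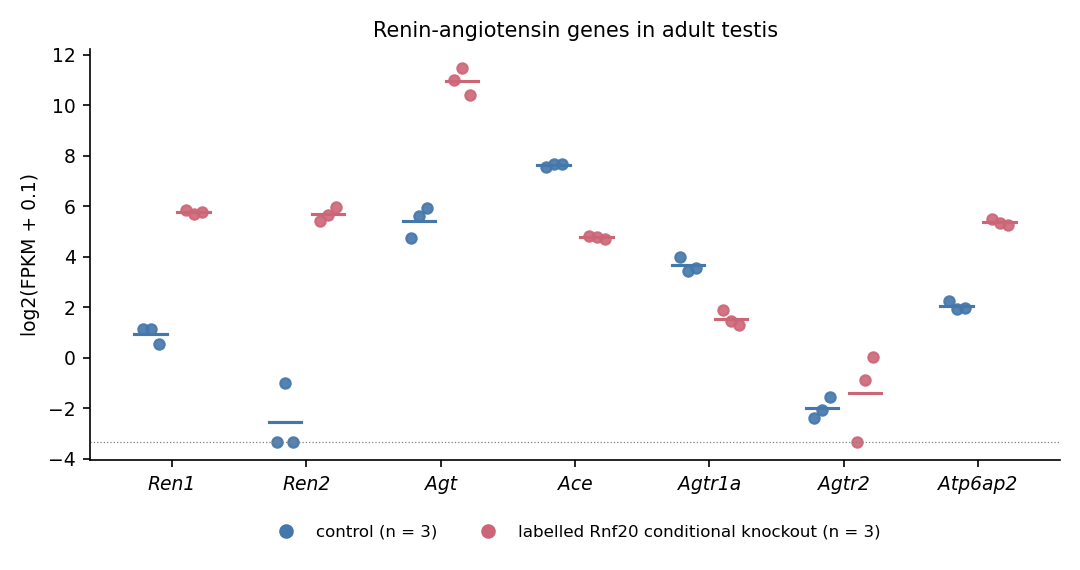
Levels of the 7 genes in adult testis, as log2(FPKM + 0.1), with 1 point per sample (3 control, 3 labelled Rnf20 conditional knockout) and a bar at each group's mean; the dotted line is 0 FPKM. Ren1, Ren2, Agt and Atp6ap2 lie higher in all 3 samples labelled knockout, Ace and Agtr1a lie lower, and the groups overlap for Agtr2.

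The division of renin counts between the pair of genes differed between the adult groups. Ren2 held 864 of 1943 renin counts in knockout-labelled testis 1, a share of 44.5% (exact 95% binomial interval 42.2 to 46.7%). The share was 51.6% (49.4 to 53.8%) in testis 2 and 55.7% (53.6 to 57.7%) in testis 3. In the controls it was 0 of 41 counts (exact interval 0 to 8.60%), 8 of 49 counts or 16.3% (7.32 to 29.7%), and 0 of 26 counts (0 to 13.2%). No control interval reached the lowest share of the samples labelled knockout. These intervals cover counting error only, and not the error of dividing reads between near-identical genes. Day 7 cells held 9 to 44 renin counts in all, of which 2 to 4 per sample were given to Ren2. In Amh-Rnf20-/- sample 1 this was 2 of 44 counts, a share of 4.55% (exact interval 0.56 to 15.5%). The other day 7 samples, with 9 to 16 renin counts, held too few to place the share. The strain C57BL/6, on which the reference genome is based, carries a single renin gene, and a gene named Ren2 was not found in the GENCODE M21 annotation of the reference chromosomes. Which renin genes each animal carried was not tested.

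**Figure D2:**
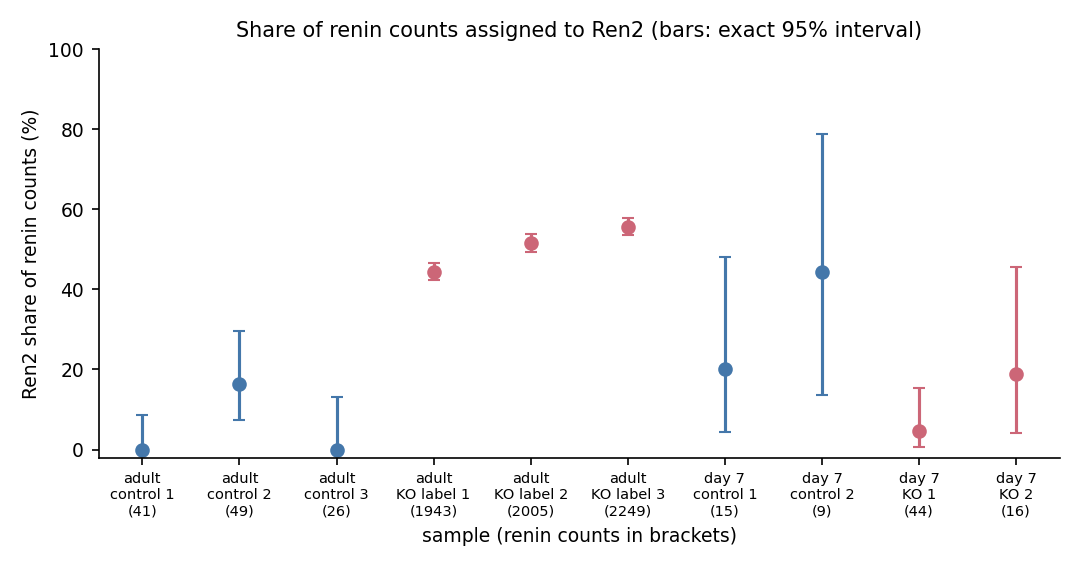
Share of the renin counts that was assigned to Ren2 (percent, vertical axis) in each of the 10 samples, with exact 95% binomial intervals as bars and the renin counts of the sample in brackets. The 3 adult samples labelled knockout lie between 44.5% and 55.7%, above the 3 adult controls. The day 7 intervals are wide except in Amh-Rnf20-/- sample 1.

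Leydig cell markers moved with renin. The summed FPKM of 9 Leydig cell markers was 4073 to 5663 in adult controls and 65685 to 90425 in the samples labelled knockout. All 9 were called higher, where 40.9% of all genes tested were, and their median log2 fold change was 3.76. Insl3, a Leydig cell hormone and the most abundant of them, was at 4873, 5402 and 3700 FPKM in controls and at 54592, 80266 and 65865 in the samples labelled knockout. Lhcgr, the luteinizing hormone receptor and the least abundant, was at 3.49, 1.76 and 2.47 FPKM and at 93.41, 84.28 and 74.41. Set against the mean log2 level of these markers within each sample, renin was at -4.58, -3.79 and -4.89 in controls and at -3.72, -3.55 and -2.97 in the samples labelled knockout. On this log2(FPKM + 0.1) scale the group means differed by 1.01, and the groups did not overlap. In an exact permutation test over samples (two-sided) p was 0.1, and 3 against 3 samples allow none smaller. With log2(FPKM + 1) the difference was 0.57 (exact p = 0.3), so the lack of overlap depended on the pseudocount. The part of Leydig cell number in the renin values was not tested.

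Of the genes tested over all 6 adult samples, those whose profile was most like that of summed renin were Cxcl1, Clec4n, Cd83, Lbh and H2-Aa. Likeness was the root mean square difference of log2(FPKM + 0.1) profiles, each centred on its own mean, and was 0.257 for Cxcl1 and 0.310 for H2-Aa. Cxcl1 and Cd83 had control means of 0.263 and 0.27 FPKM, so their profiles depend on the pseudocount of 0.1. H2-Aa, a chain of an MHC class II molecule, had a mean of 14.7 FPKM in controls and 829.9 in the samples labelled knockout. Macrophage markers also differed between the groups. The 9 markers summed to 56.4 to 66.2 FPKM in controls and to 1157 to 1578 in the samples labelled knockout. All 9 were called higher, where 40.9% of all genes tested were. Of these, Cd163 and Itgam passed the expression filter only through the samples labelled knockout, so a difference was built in.

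Agt (Entrez 11606, chr8:124556587-124569706, minus strand), the only source of angiotensin peptides, was the most abundant member in the adult testes labelled knockout. It was at 26.97, 48.86 and 60.35 FPKM in controls and at 2045, 2850 and 1346 in the samples labelled knockout. All 3 samples labelled knockout lay far above the controls, though they differed among themselves about as much as the controls did. The ratio of mean FPKM was 45.8, and the fitted log2 fold change 4.67 ± 0.50 (SE). By FPKM, Agt ranked 3594, 2388 and 2107 among the genes of the control samples and 50, 22 and 59 in the samples labelled knockout. It took 0.00427 to 0.00958% of all counts in controls and 0.213 to 0.450% in the samples labelled knockout. The gene profiles most like it over the 6 adult samples were those of Armcx6, Slc47a1, Chrd, Tbx3 and Igf2, with root mean square differences of 0.297 to 0.341. The growth factor gene Igf2 had a mean of 1.45 FPKM in controls and 70.2 in the samples labelled knockout. Stromal fibroblast markers, 6 in all, summed to 40.5 to 53.4 FPKM in controls and to 1303 to 3390 in the samples labelled knockout. All 6 were called higher, where 40.9% of all genes tested were. The part of any cell type in the Agt values was not tested.

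Ace (Entrez 11421, chr11:105967948-105989964, plus strand) was the most abundant member in the adult control testes and was lower in the samples labelled knockout. It was at 186.74, 203.80 and 205.44 FPKM in controls and at 28.39, 27.62 and 25.76 in the samples labelled knockout. Both groups were tight and did not overlap. The ratio of mean FPKM was 7.29-fold in favour of the controls, and the fitted log2 fold change was -3.26 ± 0.20 (SE). Its profile over the 6 samples was matched most closely by Prkag2, Usp51, Ube2j1, Vmn2r61 and Ift172, with root mean square differences of 0.0533 to 0.0741. Vmn2r61 had means of 0.633 FPKM in controls and 0 in the samples labelled knockout, and Usp51 had means of 1.37 and 0.117. The size of the drop in these 2 genes therefore depends on the pseudocount of 0.1. Prkag2, a regulatory subunit of AMP-activated kinase, had a mean of 82.4 FPKM in controls and 10.9 in the samples labelled knockout, and Ube2j1, a ubiquitin-conjugating enzyme, had means of 213 and 28.9.

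Ace was lower by much less than the spermatid markers and changed in the opposite direction to most endothelial markers. Prm1, the most abundant spermatid marker, was at 73382, 89250 and 52396 FPKM in controls and at 0, 14.50 and 1.30 in the samples labelled knockout. Izumo1, the least abundant, was at 79.92, 96.01 and 94.76 and at 0, 1.30 and 1.78. All 12 spermatid markers were called lower, where 40.6% of all genes tested were, with a median log2 fold change of -9.01. Relative to the mean log2 level of spermatid markers in the same sample, Ace was at -3.67, -3.68 and -3.43 in controls and at 6.23, 1.55 and 2.17 in the samples labelled knockout (exact permutation p = 0.1). In knockout-labelled testis 1, 4 of the 12 markers were listed at 0 FPKM, so its value is set by the pseudocount of 0.1. The groups differed by 6.91 with that pseudocount, by 6.12 with a pseudocount of 1, and by 5.46 without testis 1. Endothelial markers, 10 in all, summed to 9.36 to 10.3 FPKM in controls and to 49.8 to 85.3 in the samples labelled knockout. Of these markers 7 were called higher and Flt1 was called lower after TMM scaling, against 40.9% and 40.6% of all genes tested. Pecam1, Cdh5, Tek, Tie1 and Kdr passed the expression filter only through the samples labelled knockout, so a difference was built in. With total counts only, 9 endothelial markers were higher and none lower, against 54.1% and 30% of all genes. The FPKM groups of Flt1 overlapped. Relative to the endothelial markers, Ace was at 8.11 ± 0.07 in controls and at 2.58 ± 0.33 in the samples labelled knockout (SD, n = 3 each). The difference was -5.53 (exact permutation p = 0.1).

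The length over which Ace was normalised also differed between the adult groups. RSEM was named for the day 7 cells only and is assumed here for the adult table. RSEM divides a gene's estimated count by an effective length that averages its transcripts by their abundance. This length can be recovered from each sample as the count over the product of FPKM and total counts. For Ace it was 3015, 2991 and 2981 bases in controls and 4160, 4084 and 4078 bases in the samples labelled knockout. The difference of 1112 bases, or 37.1% of the control mean, was far larger than the spread within either group (SD 17.5 and 45.5 bases, n = 3 each; exact permutation p = 0.1). In day 7 Sertoli cells it was 4469 and 4431 bases in controls and 4634 and 4388 bases in Amh-Rnf20-/- samples. For Ren1, Agt and Atp6ap2 the adult groups differed by 0.16% or less in size, and Agtr1a was 3.69% shorter in the samples labelled knockout. Among 1870 genes at 20 FPKM or more in all 6 adult samples, 23 lengthened more than Ace, and the median shift was 0.0062 (log2, absolute) against 0.46 for Ace.

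In the GENCODE M21 annotation on GRCm38, the full-length transcript Ace-201 has 25 exons and 4906 bases, and Ace-202 has 14 exons and 2418 bases. The inner RefSeq start, at position 105975189, falls in the intron between exons 12 and 13 of Ace-201. Another coding transcript, Ace-203, has 20 exons and 3649 bases. The lengths implied by the control testes lay between those of Ace-202 and Ace-203, and the lengths implied by the samples labelled knockout and by day 7 cells lay between those of Ace-203 and Ace-201. An effective length is shorter than a transcript by an amount set by fragment size, and the transcript models the authors counted on were not given in the sources used here, so the lengths are not converted into shares of transcripts.

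**Figure D3:**
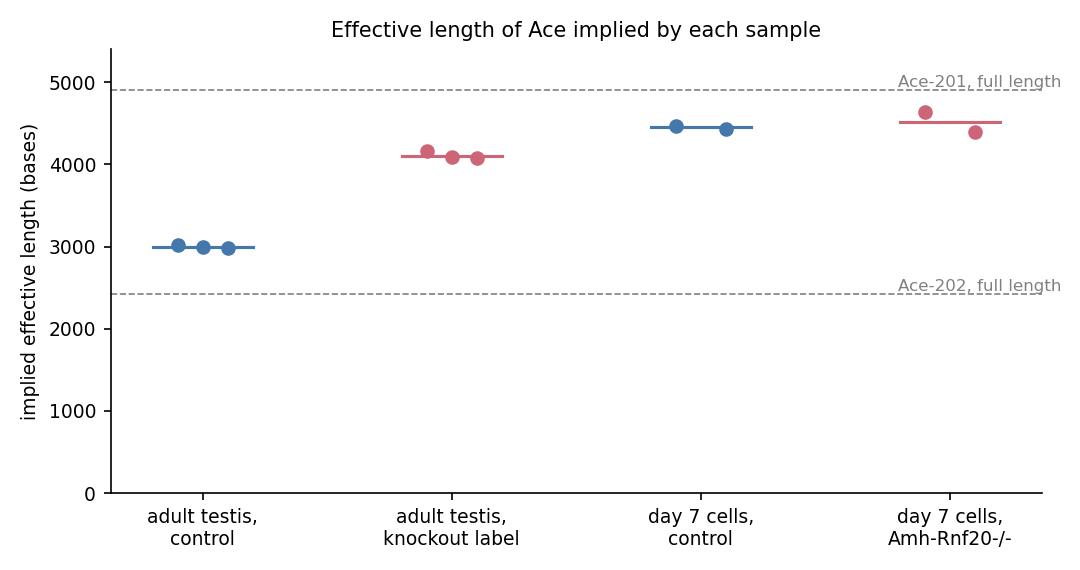
Effective length of Ace implied by each sample, in bases, with 1 point per sample and a bar at each group's mean; dashed lines are the full lengths of the annotated transcripts Ace-201 (4906 bases) and Ace-202 (2418 bases). Adult controls lie at 2981 to 3015 bases and all other samples at 4078 to 4634 bases.

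Agtr1a (Entrez 11607, chr13:30336356-30382867, plus strand), the main type 1 receptor of the mouse, was at 15.82, 10.67 and 11.59 FPKM in adult controls and at 3.60, 2.63 and 2.33 in the samples labelled knockout. The groups did not overlap, and the fitted log2 fold change was -3.04 ± 0.27 (SE). Agtr1b, the other type 1 receptor gene, was at 0.51, 0.23 and 0.52 FPKM in controls and at 0.07, 0.07 and 0.03 in the samples labelled knockout, below the expression filter. Agtr2 (Entrez 11609, chrX:21484624-21488833, plus strand), the type 2 receptor, was at 0.09, 0.14 and 0.24 FPKM in controls and at 0, 0.45 and 0.92 in the samples labelled knockout. It did not pass the filter and was not tested, and the groups overlapped, with counts of 4 to 10 in controls and of 0, 19 and 37 in the samples labelled knockout.

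Atp6ap2 (Entrez 70495, chrX:12587759-12617051, plus strand), the (pro)renin receptor, was at 4.71, 3.70 and 3.84 FPKM in adult controls and at 45.05, 40.19 and 38.24 in the samples labelled knockout. The groups lay far apart and were each tight, with a ratio of mean FPKM of 10.1 and a fitted log2 fold change of 2.48 ± 0.16 (SE). Of 14 other subunits and partners of the vacuolar proton pump, 7 were called higher, 4 lower and 3 were not called after TMM scaling, near the 81.5% called of all genes tested, with a median log2 fold change of 0.51. With total counts as the only scaling, 10 were higher and 3 lower, against 54.1% and 30% of all genes. The other accessory subunit, Atp6ap1, was at 8.85, 6.95 and 7.15 FPKM in controls and at 123.34, 98.72 and 103.72 in the samples labelled knockout (log2 fold change 2.98 ± 0.18, edgeR adjusted p = 4.2e-05). The membrane subunit Atp6v0a1 differed by 2.52 ± 0.23 (log2, SE). Of the membrane part, Atp6v0c, Atp6v0d1 and Atp6v0e were also called higher, and Atp6v0b was not called. Atp6v1d of the cytosolic part was at 114.90, 115.05 and 114.03 FPKM and at 64.30, 64.35 and 71.07 (log2 fold change -1.65 ± 0.12). The cytosolic genes Atp6v1c1, Atp6v1f and Atp6v1g1 were also called lower, Atp6v1b2 and Atp6v1e1 were called higher, and Atp6v1a and Atp6v1h were not called. Relative to the mean log2 level of the 14 genes in the same sample, Atp6ap2 was at -3.31 ± 0.18 in controls and at -1.20 ± 0.24 in the samples labelled knockout (SD, n = 3 each), higher by 2.12 (exact permutation p = 0.1).

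Of the 7 members 6 passed the filter in adult testis, and all 6 were called by edgeR, with 4 higher and 2 lower. Ren2 passed only through the samples labelled knockout, so its call, direction and lack of overlap were built in. Since 81.5% of all genes tested were called, 40.9% higher and 40.6% lower, a call is the common outcome and nothing is read from the members' count. The FPKM groups did not overlap for the same 6 members, against 87.4% of all genes tested, 54.9% with the samples labelled knockout above the controls and 32.4% with them below. The 4 higher and 2 lower members kept their direction under TMM, median-ratio and total-count scaling. Over all genes tested, the median log2 fold change was 0.01 with TMM, -0.19 with median ratios and 0.87 with total counts, which moved the split of calls to 54.1% higher and 30% lower. Relative to that shift, the members' differences were of nearly the same size under all 3 scalings. By mean FPKM, the order in controls was Ace, Agt, Agtr1a, Atp6ap2, renin and Agtr2, and in the samples labelled knockout it was Agt, renin, Atp6ap2, Ace, Agtr1a and Agtr2. No neighbours in either order overlapped between samples, whereas Ren1 and Ren2 taken singly did in the samples labelled knockout.

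**Figure D4:**
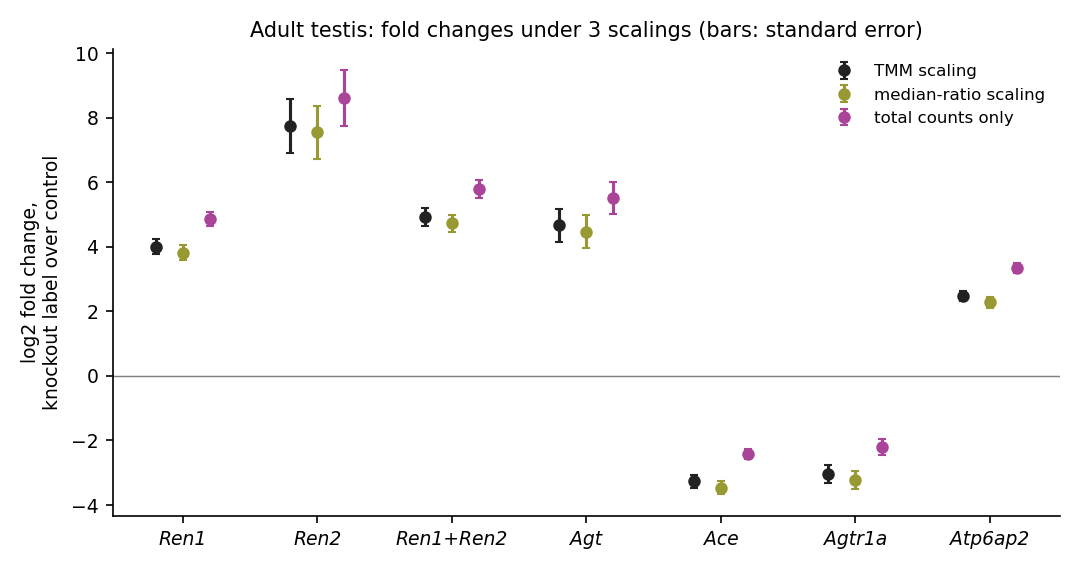
Fitted log2 fold change of each tested member and of summed renin in adult testis (samples labelled knockout over control), under TMM, median-ratio and total-count scaling, with standard errors as bars. Each gene keeps its side of 0 under all 3 scalings, while total counts place every gene higher by 0.84 to 0.87.

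The list of other genes of the pathway held 24 genes, of which 22 were listed in the adult table and 18 were tested. In adult testis 10 were called higher, 4 lower and 4 not called, a share of calls near the 81.5% of all genes tested, with a median log2 fold change of 1.81 where all genes tested had 0.01. With total counts only, 14 were higher and 2 lower, where 54.1% and 30% of all genes were. Mme, or neprilysin, was at 1.08, 0.72 and 1.61 FPKM in controls and at 21.64, 31.75 and 25.58 in the samples labelled knockout (log2 fold change 3.75 ± 0.30, edgeR adjusted p = 8.9e-05). Anpep, or aminopeptidase N, differed by 3.90 ± 0.44, Enpep, or aminopeptidase A, by 2.33 ± 0.52, and Prep, a prolyl endopeptidase, by 2.30 ± 0.31. Ctsa, the lysosomal carboxypeptidase cathepsin A, was at 5.77 to 6.81 FPKM and at 95.39 to 116.83 (log2 fold change 3.19 ± 0.17).

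The 3 mast cell proteases passed the filter only through the samples labelled knockout, as did Anpep and Enpep, so a difference was built in, and the spread of the proteases was wide. Chymase Cma1, which can make angiotensin II without Ace, was at 0.07, 0 and 0.07 FPKM in controls and at 20.03, 7.35 and 2.86 in the samples labelled knockout. Mcpt4 was at 24.40, 10.29 and 4.75 FPKM in the latter, and the carboxypeptidase Cpa3 at 9.68, 4.18 and 1.35. Each of the 3 was highest in knockout-labelled testis 1 and lowest in testis 3. Cpa3 was not called without control 2 or without control 3 (edgeR adjusted p = 0.057 in both). Nr3c2, the mineralocorticoid receptor, differed by 1.32 ± 0.27 on the log2 scale.

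Mas1, a receptor for a shorter angiotensin peptide, had the lowest fold change of the list. It was at 16.75, 21.61 and 21.95 FPKM in controls and at 0.12, 0.47 and 0.43 in the samples labelled knockout (log2 fold change -6.67 ± 0.31, edgeR adjusted p = 2.8e-05). Thop1, or thimet oligopeptidase, which can make that peptide from angiotensin I, was at 149.40, 162.04 and 140.95 FPKM in controls and at 10.59, 17.72 and 21.34 in the samples labelled knockout. Klk1, tissue kallikrein, was called lower (log2 fold change -2.44 ± 0.71, adjusted p = 0.018 by edgeR), but not with total counts only (adjusted p = 0.080) or without knockout-labelled testis 3 (adjusted p = 0.079). Prcp, a carboxypeptidase, was called lower at -0.56 ± 0.14 after TMM scaling, but its FPKM was higher in every sample labelled knockout and its direction reversed with total counts. Agtrap, which binds the type 1 receptor, and the peptidases Lnpep, Nln and Dpp3 were not called, with log2 fold changes of 0.25, 0.44, 0.02 and -0.21. All 4 had higher FPKM in every sample labelled knockout and were called higher with total counts only, whereas Dpp3 was called lower with DESeq2 and with median-ratio scaling (-0.41 in both).

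In day 7 Sertoli cells the system was expressed at low levels, apart from Atp6ap2. No member was called, and none of the 12880 genes tested (0%) had an edgeR adjusted p under 0.05, the smallest being 0.096; at an unadjusted p under 0.05 there were 1997 genes, or 15.5%. DESeq2 called 581 genes, 4.51%. Atp6ap2 was the most abundant member, at 57.62 and 55.71 FPKM in controls and at 55.44 and 55.48 in Amh-Rnf20-/- cells. Its log2 fold change was 0.01 ± 0.07 (edgeR adjusted p = 0.97).

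Agtr1a was the member whose day 7 groups were furthest apart for their spread. It was at 1.02 and 0.94 FPKM in controls and at 2.73 and 2.81 in Amh-Rnf20-/- cells, where both samples lay above both controls. The log2 fold change was 1.54 ± 0.21, with an unadjusted p of 0.0011 and an adjusted p of 0.13 by edgeR, and DESeq2 called it with an adjusted p of 0.014. The counts behind it were 33 to 36 in controls and 96 to 100 in Amh-Rnf20-/- cells. The summed FPKM of 7 peritubular myoid cell markers was 1959 to 2078 in controls and 3613 to 3664 in Amh-Rnf20-/- cells, and that of 6 stromal fibroblast markers was 2152 to 2236 and 3306 to 3920. None of these markers was called by edgeR, and their part in the Agtr1a values was not tested.

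Renin was near the limit of detection in day 7 cells. Summed renin was at 0.73 and 0.43 FPKM in controls, from 15 and 9 counts, and at 2.17 and 0.78 in Amh-Rnf20-/- cells, from 44 and 16 counts (log2 fold change 1.35 ± 0.64, edgeR adjusted p = 0.39). Amh-Rnf20-/- sample 1 set most of this difference: renin differed by 0.44 (log2) with that sample left out and by 1.91 with sample 2 left out. Summed Leydig cell markers were at 200.95 and 206.15 FPKM in controls and at 333 and 257 in Amh-Rnf20-/- samples 1 and 2. The largest part was Cyp11a1, at 101.34 and 106.48 FPKM in controls and at 196.6 and 135.84 in samples 1 and 2. Cyp17a1 and Lhcgr were at 0.19 FPKM or less in every sample, and Hsd3b6 was not listed. Of the 8 listed markers, 5 lay above the controls in both samples, 1 (Nr5a1) below, and 2 overlapped, where 19.7% of all genes tested lay above and 31.1% below. Ace was at 5.90 and 6.29 FPKM in controls and at 13.46 and 6.59 in Amh-Rnf20-/- cells (log2 fold change 0.79 ± 0.38, adjusted p = 0.40 by edgeR). It too was high only in sample 1, being 0.13 without sample 1 and 1.24 without sample 2 (adjusted p = 2.6e-05). Endothelial markers summed to 45.0 and 43.1 FPKM in controls and to 70.6 in sample 1 and 44.5 in sample 2. Most of this sum was Cdh5, at 30.22 and 28.29 FPKM in controls and at 42.97 and 32.12 in samples 1 and 2. Of the 10 endothelial markers, 3 lay above the controls in both samples, 2 (Pecam1 and Egfl7) below, and 5 overlapped. Of all genes tested, 19.7% lay above and 31.1% below. The part of endothelial cells in the Ace values was not tested. Agt was at 5.24 and 4.46 FPKM in controls and at 4.97 and 7.26 in Amh-Rnf20-/- cells, and the groups overlapped (log2 fold change 0.37 ± 0.24, edgeR adjusted p = 0.52). Without sample 1 its log2 fold change was 0.61 and it was called (adjusted p = 0.035). Ren2, at 0.09 to 0.16 FPKM, and Agtr2, at 0.17 to 0.48 FPKM, did not pass the filter.

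**Figure D5:**
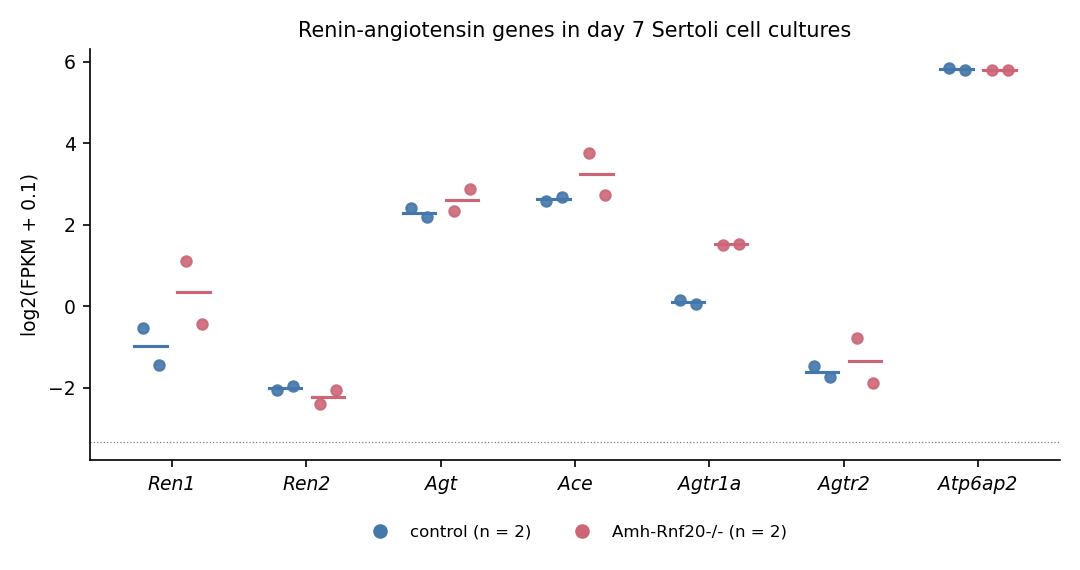
Levels of the 7 genes in day 7 Sertoli cell cultures, as log2(FPKM + 0.1), with 1 point per sample (2 control, 2 Amh-Rnf20-/-) and a bar at each group's mean; the dotted line is 0 FPKM. The Agtr1a groups lie apart, and Atp6ap2 is level at 55.44 to 57.62 FPKM. The Ren1 and Ace differences come mostly from 1 high Amh-Rnf20-/- sample.

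Of the other genes of the pathway, 14 were tested in day 7 cells and none was called (edgeR; median log2 fold change 0.02), while DESeq2 called Anpep. Anpep was at 7.79 and 8.84 FPKM in controls and at 4.85 and 5.14 in Amh-Rnf20-/- cells (log2 fold change -0.70 ± 0.12, adjusted p = 0.15 by edgeR and 0.023 by DESeq2). Mme was at 27.94 and 27.83 FPKM in controls and at 17.27 and 20.18 (log2 fold change -0.49 ± 0.13, edgeR adjusted p = 0.23). Cma1 was at 0.35 and 0.28 FPKM in controls and at 2.30 and 0.84 in Amh-Rnf20-/- cells (edgeR adjusted p = 0.26), and Cyp11b1, an enzyme of corticosteroid synthesis, was at 1.10 and 1.24 and at 2.47 and 1.33 (adjusted p = 0.42). Both were again highest in sample 1. Ctsa, Prep and Thop1 were well expressed, at 158.08 to 183.21, 42.26 to 60.97 and 29.10 to 35.84 FPKM. Mas1 was at 0.01 to 0.07 FPKM, below the filter. The 14 proton pump genes were all tested and none was called (median log2 fold change 0.12), and Atp6ap2 relative to them differed by -0.09 (exact permutation p = 0.3333, the smallest that 2 against 2 samples allow).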

How the data were processed

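RNA was enriched with oligo(dT) and sequenced on a BGISEQ instrument. HISAT, Bowtie2 and GRCm38.p6 are named in the submitters' processing notes; for the day 7 cells the authors used HISAT for the genome, Bowtie2 for gene sequences and RSEM for expression. Tool versions and strandedness were not given in the sources used here. The deposited tables hold estimated counts, FPKM and TPM per gene and sample. TPM, also computed by the authors, was not used in any test. A further 20 columns of the adult table were empty. Estimated counts (10.7 to 13.2% not whole) were rounded.

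Each table was fitted alone, with edgeR 4.0.16 (R 4.3.3), TMM scaling and the quasi-likelihood test, on genes at 0.5 FPKM or more in at least 1 group's number of samples, with Benjamini-Hochberg adjustment over all tested genes. A gene was called at an adjusted p under 0.05. Renin was fitted as a sum in a second run over the whole table. Ratios within samples used log2(FPKM + 0.1). The implied length of Ace was computed after its values were seen. DESeq2 1.42.0, limma 3.58.1, other scalings and filters, a replicate block and leaving out each sample were alternatives. The script was tested on simulated data, with 100 genes changed 16-fold, 50 changed 4-fold and 50 changed 2-fold, up and down alike. In the adult design edgeR recovered 88% of genes changed 16-fold, 50% of those changed 4-fold and 6% of those changed 2-fold, with 5 false calls among 14844 genes. In the day 7 design it recovered 100%, 98% and 74%, with 19 false calls among 12681 genes. So few changed genes do not resemble the adult data, where 81.5% of genes tested were called. Recovery under such a broad difference was not tested. Named genes were the members, Rnf20, pathway genes that were called or reached a mean of 1 FPKM, the most and least abundant marker of lists, and the 5 genes most alike; Agtr1b, Flt1 and proton pump genes were named after their values were seen. Members and lists were chosen with earlier results of these data known. The values of 1 gene of the pathway list are not reported here.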

Additional observations from a re-analysis of the deposited data

Results flagged for a closer look

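Among the members, the other pathway genes and the proton pump genes, only genes tested in both tables were considered here. The genes below differed in opposite directions between control and knockout-labelled samples in adult testis and in day 7 Sertoli cells. Their groups did not overlap in either table after TMM scaling, and the difference between the tables was not tested. Nr3c2 also lay above the controls in adult testis and below them at day 7, where it was not tested. In FPKM, the groups did not overlap for 87.4% of all genes tested in adult testis. In day 7 cells they did not for 50.8%, with 19.7% above and 31.1% below the controls. Shares over all genes after TMM scaling are not given here. The day 7 groups of Atp6v1f overlapped in FPKM, at 208.18 and 206.58 in controls and 203.41 and 222.77 in Amh-Rnf20-/- cells. Ace had a log2 fold change of -3.26 in adult testis and 0.79 in day 7 cells, Agtr1a -3.04 and 1.54, Anpep 3.90 and -0.70, Mme 3.75 and -0.49, Atp6v1c1 -1.72 and 0.22, Atp6v1d -1.65 and 0.16, and Atp6v1f -1.31 and 0.077. The day 7 value of Ace rests on 1 sample, being 0.13 without Amh-Rnf20-/- sample 1 and 1.24 without sample 2. The day 7 values were not called by edgeR (adjusted p = 0.40 for Ace, 0.13 for Agtr1a, 0.15 for Anpep, 0.23 for Mme, 0.34 for Atp6v1c1, 0.43 for Atp6v1d and 0.69 for Atp6v1f).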

How the results depend on the processing

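The 6 adult members kept their direction and call under all alternatives and with any 1 sample left out. Ren2, which passed the filter only through the samples labelled knockout, ranged from 5.55 (limma, pseudocount of 1) to 8.61 with all samples kept and reached 12.77 without control 2, so its fitted value is no measure of size. Summed renin ranged over log2 fold changes of 4.72 to 5.79, Agt 4.47 to 5.53, Ace -3.46 to -2.41, Agtr1a -3.24 to -1.83 and Atp6ap2 2.29 to 3.33 with all samples kept. Adult Rnf20 reversed to -0.075 with DESeq2 and with median-ratio scaling, and was called higher at 0.97 with total counts. Adult Nln reversed to -0.17 with DESeq2 and median-ratio scaling and ranged from -0.037 to 0.12 with 1 sample left out (-1.5e-05 without control 1). Prcp reversed to 0.28 and 0.26 with limma at pseudocounts of 0.1 and 1 and to 0.29 with total counts, and Dpp3 to 0.64, 0.62 and 0.64. The adult implied length of Ace differed by 1085 to 1126 bases with 1 sample left out.

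In day 7 cells DESeq2 called 581 genes and 1 member. With 1 sample left out, 0 to 5136 genes (2757 without Amh-Rnf20-/- sample 1, 5136 without sample 2) and 0 to 3 members were called; an arm of 1 sample is assumed to vary like the other group. Renin relative to Leydig cell markers ranged from -0.033 to 1.41, being -0.033 without Amh-Rnf20-/- sample 1. Atp6ap2 reversed to -0.031 and -0.030 with the limma settings and -0.030 with total counts and ranged from -0.022 to 0.039 with 1 sample left out. Lnpep reversed to -0.088 and -0.063 with limma, -0.023 with total counts and -0.044 with the replicate block, and ranged from -0.49 to 0.39. Dpp3 reversed to -0.015 and -0.015 with limma and -0.012 with total counts, and ranged from -0.035 to 0.086. With 1 sample left out, Agtrap ranged from -0.49 to 0.079, Thop1 from -0.17 to 0.12 and Ctsa from -0.0074 to 0.19. Where no value above shows it, the cause was not tested.

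In adult testis, samples with the same replicate number deviated together with correlations of 0.017, 0.030 and 0.018. Correlations between different numbers were negative, so every adult sample correlated best with its own number. At day 7, centring groups of 2 samples fixes all correlations at the same size, here 0.029, so that check cannot decide on pairing. Whether the numbers pair the samples was not settled, and the main fits treated them as unpaired. With the replicate block 12209 adult genes were called against 12969, and all 6 members; at day 7 the block gave 0 calls.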
